A study of Mus musculus with 13 samples.

Results

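Calprotectin, the calcium-binding and metal-binding protein made of S100a8 and S100a9, and 6 other S100 genes (S100a1, S100a4, S100a6, S100a10, S100a11 and S100a13) were followed across eosinophils of the mouse small intestine that differ in Clec4a4, a lectin of the cell surface whose tail carries inhibitory signals. The genes were chosen by symbol from the S100 family with earlier results of these arrays known, and were found in the probe set annotation of each of 2 array tables. Where a gene had several probe sets, 1 was chosen by measured brightness, its mean over all arrays of that table, without regard to the groups. All 8 genes were measured, among 21395 genes in the table of the reporter mice and 25003 genes in the table of the other mice.

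Eosinophils were sorted from the small intestinal lamina propria (siLP) of 3 kinds of mice, and their RNA was measured on 13 microarrays. In Clec4a4-KI mCherry mice, which carry mCherry knocked in as a reporter of Clec4a4, 5 arrays held mCherry+ eosinophils and 5 held mCherry- eosinophils, so both groups came from animals with the knock-in. The other 3 arrays held 1 sample each of Clec4a4+ eosinophils from wild-type (WT) mice, Clec4a4- eosinophils from WT mice and Clec4a4- eosinophils from Ahr KO mice, named for loss of the aryl hydrocarbon receptor gene. Its protein, AHR, is a transcription factor that responds to small molecules from food and bacteria. By the submitters' account, the first set was to find genes particular to each subset and the second to find which of them depend on AHR. The reporter samples are titled as biological replicates. The labels give no strain, age, sex or number of mice, tie no sample to a mouse, and do not say in which cells Ahr is lost, so a p-value here covers only the spread among the sorted samples, which may be technical.

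S100 proteins are small calcium sensors with a pair of EF-hand loops, and most of them work as dimers that expose a binding surface for a target protein once calcium is bound. S100a8 and S100a9 join into calprotectin, which is stored in large amounts in the cytosol of neutrophils and monocytes, withholds zinc and manganese from microbes, and signals through Tlr4 and the receptor for advanced glycation end products (Ager) once it is released. Calprotectin in stool is a clinical measure of intestinal inflammation. The other members act mostly inside the cell: S100a10 binds annexin A2, S100a11 binds annexin A1, S100a4 binds non-muscle myosin, S100a6 binds the ubiquitin ligase adaptor Cacybp, S100a13 takes part in the release of Fgf1 and Il1a, and S100a1 regulates calcium handling in muscle.

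The promoters of S100a8, of S100a9 and of S100a11, the member with the smallest difference in the reporter mice, are shown to set the sequences upstream of the members that differed most beside one that differed least. They are from RefSeq on GRCm38.p6 and run from 250 bases before to 50 bases after the annotated start, 5′ to 3′ on the strand of the gene. The windows are chr3:90668821-90669120 on the plus strand for S100a8, chr3:90695672-90695971 on the minus strand for S100a9, and chr3:93520246-93520545 on the plus strand for S100a11. Capitals mark matches to any of 6 motifs.
S100a8 promoter: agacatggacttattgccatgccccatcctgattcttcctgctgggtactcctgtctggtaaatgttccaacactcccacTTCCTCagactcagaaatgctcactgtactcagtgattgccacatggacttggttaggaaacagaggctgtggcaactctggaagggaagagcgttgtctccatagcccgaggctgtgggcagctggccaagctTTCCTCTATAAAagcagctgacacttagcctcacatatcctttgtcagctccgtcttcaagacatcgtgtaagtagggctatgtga
S100a9 promoter: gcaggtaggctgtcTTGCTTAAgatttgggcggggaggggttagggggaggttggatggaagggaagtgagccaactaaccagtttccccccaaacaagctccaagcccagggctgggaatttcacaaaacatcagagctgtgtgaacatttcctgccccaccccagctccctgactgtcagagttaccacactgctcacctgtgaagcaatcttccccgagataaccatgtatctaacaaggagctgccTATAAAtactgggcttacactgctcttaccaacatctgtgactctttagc
S100a11 promoter: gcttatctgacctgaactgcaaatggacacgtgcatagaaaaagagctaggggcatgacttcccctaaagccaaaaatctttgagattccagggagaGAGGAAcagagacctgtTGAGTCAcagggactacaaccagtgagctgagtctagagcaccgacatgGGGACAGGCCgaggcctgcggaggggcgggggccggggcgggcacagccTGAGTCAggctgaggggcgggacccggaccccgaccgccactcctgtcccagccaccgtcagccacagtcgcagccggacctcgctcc

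The motifs were searched on both strands as plain letters: TATAAA (the TATA box), TTGCNNAA (C/EBP factors), GAGGAA (PU.1), TGANTCA (AP-1) and GCGTG (the core bound by AHR), together with an NF-kB motif of fixed outer letters and an open centre. Of 32851 mouse promoters of the same length, 13.6% held TATAAA, 10.8% TTGCNNAA, 28.3% GAGGAA, 7.81% TGANTCA, 32.4% GCGTG and 20.7% the NF-kB motif. The S100a8 window held 1 TATAAA and 2 matches to GAGGAA read on the other strand (TTCCTC), 1 of which ran directly into the TATAAA, so that both form a single run of capitals. The S100a9 window held 1 TATAAA, which began at the annotated start itself, and 1 TTGCNNAA. The S100a11 window held no TATAAA, 2 TGANTCA, 1 GAGGAA and 1 match to the NF-kB motif. GCGTG was in none of these 3 windows and in 1 place, on the other strand, in that of S100a13. The S100a4 window held 1 TATAAA, 1 GAGGAA read on the other strand and 1 match to the NF-kB motif. S100a4 was not called in the reporter mice, so a TATAAA is not particular to S100a8 and S100a9. The windows of S100a1, S100a6 and S100a13 held no TATAAA. For S100a10 no promoter was available to search. These are matches of letters and say nothing about which factor binds.

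The 8 genes lie in the S100 cluster on chromosome 3. On GRCm38.p6, S100a1 (90511034 to 90514330), S100a13 (90514233 to 90524581), S100a4 (90603770 to 90606045) and S100a6 (90612894 to 90614414) come first, followed by S100a8 (90669071 to 90670034) and S100a9 (90692630 to 90695721). S100a8 and S100a9 are 22595 bases apart with no annotated gene between them, and 54656 bases separate S100a6 from S100a8. S100a11 (93520496 to 93526288) and S100a10 (93555117 to 93564645) lie beyond a gap of 2824774 bases.

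All values are log2 intensities. Values of different probe sets are not set against each other, and the 2 tables were normalized apart, so each difference was taken within a gene and a table. The 10 reporter arrays had medians of 5.18 to 5.27 and the other 3 arrays 4.73 to 4.75. Correlations between reporter arrays within a group were 0.921 to 0.977. The median of all gene values, used here as a mark under which a value may be background, was 5.36 in the reporter table and 4.80 in the other. Clec4a4 was higher in mCherry+ (9.18 ± 0.62, SD, n = 5) than in mCherry- eosinophils (7.52 ± 0.62) in limma's fit with the replicate number as a block (log2 difference 1.66, adjusted p = 0.00205) and missed the threshold without it (adjusted p = 0.0804). The eosinophil genes Siglecf (8.67 in mCherry+ and 8.29 in mCherry-) and Ccr3 (10.65 and 10.53) stood well above the table median. Epx, the eosinophil peroxidase, lay under it on all 10 arrays, between 4.31 and 4.89. All of 16 intestinal epithelial markers were also above the table median on average. Their mean per array was 8.37 to 10.83 in mCherry+ and 8.20 to 10.99 in mCherry- eosinophils, and the share of epithelial RNA was not tested. Ahr read 11.11 on the WT Clec4a4+ array, 11.08 on the WT Clec4a4- array and 11.12 on the Ahr KO array. A probe set outside the deleted part checks nothing, so the knockout could not be checked from its intensity.

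Both subunits of calprotectin were much lower in mCherry+ than in mCherry- eosinophils. S100a8 read 9.96, 10.19, 9.77, 12.27 and 11.24 in mCherry- replicates 1 to 5. In mCherry+ replicates 1 to 5 it read 4.95, 4.36, 6.25, 5.96 and 5.55. The groups did not overlap: the highest mCherry+ value was below the lowest mCherry- value, and mCherry- replicates 4 and 5 were the highest of all. The means were 10.69 ± 1.05 and 5.41 ± 0.76 (SD, n = 5), a log2 difference of -5.27 (SE 0.50, 95% interval -6.37 to -4.18), or 38.7-fold, with a limma adjusted p of 0.00117 over all genes.

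S100a9 read 10.42, 11.06, 9.55, 12.38 and 11.73 in mCherry- replicates 1 to 5. In mCherry+ replicates 1 to 5 it read 6.55, 6.09, 4.36, 6.96 and 6.05. Again no mCherry+ array reached the lowest mCherry- array, and replicate 4 was the highest in both groups. The means were 11.03 ± 1.10 and 6.0 ± 0.99 (SD, n = 5), a log2 difference of -5.03 (SE 0.57, 95% interval -6.27 to -3.78), or 32.6-fold, with a limma adjusted p of 0.00358. In a bulk sample, fewer cells that make calprotectin and less calprotectin RNA in each cell cannot be told apart.

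**Figure D1:**
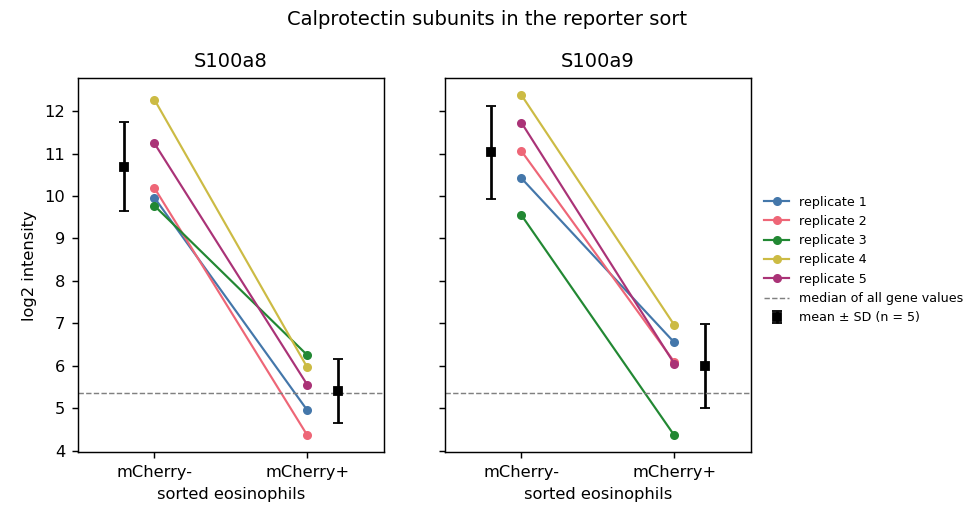
log2 intensity of S100a8 (left) and S100a9 (right) in mCherry- and mCherry+ eosinophils; each line joins the arrays of 1 replicate number, black squares and bars are the mean and SD of 5 arrays, and the dashed line is the median of all gene values (5.36). Every line falls, from 9.77 or higher to 6.25 or lower for S100a8 and from 9.55 or higher to 6.96 or lower for S100a9.

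The difference had the same sign within every replicate number. For S100a8 the differences in pairs 1 to 5 were -5.02, -5.83, -3.52, -6.31 and -5.69. For S100a9 they were -3.87, -4.97, -5.19, -5.41 and -5.68. Pair 3 gave the smallest S100a8 difference and pair 1 the smallest S100a9 difference. From lowest to highest, the mCherry- arrays came in the same order for both genes (replicates 3, 1, 2, 5, 4), while among mCherry+ arrays the order differed: replicate 3 was the highest for S100a8 and the lowest for S100a9.

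Part of the mCherry+ signal was close to background. S100a8 was under the table median on 2 of the 5 mCherry+ arrays and S100a9 on 1. With those values raised to the median, the difference was -4.99 (31.8-fold) for S100a8 and -4.82 (28.3-fold) for S100a9. An exact two-sided permutation test over the 10 arrays gave p = 0.00794 for each gene, the smallest that 5 arrays against 5 can give. The test leaves out the pairing by replicate number. Groups that do not overlap always give this value, so it adds nothing to the lack of overlap. Without both arrays of replicate 2, or both of replicate 5, the S100a9 call was lost (limma adjusted p = 0.0554 and 0.0749), with log2 differences of -5.04 and -4.86.

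The count of called members was small. Of the 8 members, 2 were called lower in mCherry+ at an adjusted p under 0.05 and 0 were called higher, against 0.21% of all genes called lower and 0.145% called higher (45 and 31 of 21395), together 0.355%. The 6 members other than S100a8 and S100a9 did not pass. Those 2 were also the only members whose groups did not overlap, against 1.07% of all genes with every mCherry+ array below every mCherry- array. An unadjusted limma p under 0.05 was reached by 3 members without the block (S100a4 besides S100a8 and S100a9), against 7.33% of all genes. With the block 5 members reached it (S100a6 and S100a10 too), against 11.8% of all genes. The median difference was -0.48 over the 8 members and -0.01 over all genes. Lower values in mCherry+ in 5 of 5 pairs were found for 4 members (S100a8, S100a9, S100a4 and S100a10), and for 5.95% of all genes.

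S100a4, a partner of non-muscle myosin linked to cell motility, had the lowest adjusted p of the other members without the replicate block, and it was dim. It read 5.88, 4.94, 5.63, 5.29 and 5.19 in mCherry- replicates 1 to 5. In mCherry+ replicates 1 to 5 it read 5.63, 4.71, 4.37, 4.62 and 4.46. Each mCherry+ array was below its own partner, but the groups overlapped because mCherry+ replicate 1 was as high as mCherry- replicate 3. The log2 difference was -0.63 (SE 0.25, 95% interval -1.17 to -0.09), with an unadjusted limma p of 0.0261 and an adjusted p of 0.552. With the block the SE was 0.16, the unadjusted limma p 0.00369 and the adjusted p 0.117. In that fit S100a10 had the lower adjusted p (0.0904). Of its values, 4 on mCherry+ and 3 on mCherry- arrays were under the table median, and with these raised to it the difference was -0.10.

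S100a6, also called calcyclin and found in many growing and epithelial cells, stood well above the table median in both groups. It read 9.29, 8.70, 8.88, 10.48 and 10.20 in mCherry- replicates 1 to 5. In mCherry+ replicates 1 to 5 it read 7.80, 8.60, 9.03, 9.70 and 9.73. Replicates 4 and 5 were the highest of each group and the groups overlapped over most of their range. The log2 difference was -0.54 (SE 0.44, 95% interval -1.5 to 0.42, limma adjusted p = 0.912), with pair differences from -1.48 in pair 1 to 0.14 in pair 3. With the block the SE was 0.21, the unadjusted limma p 0.0336 and the adjusted p 0.361.

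S100a10, the light chain that ties annexin A2 to the plasma membrane, was lower in mCherry+ in each pair, by small amounts. It read 9.93 in mCherry- replicate 1 and 10.87 to 11.18 in the other 4 mCherry- replicates. In mCherry+ replicates 1 to 5 it read 9.56, 10.31, 10.56, 11.05 and 10.50. Replicate 1 was the lowest of each group, and the groups overlapped. The log2 difference of -0.42 (SE 0.29, 95% interval -1.06 to 0.22) did not pass (limma adjusted p = 0.868, and 0.0904 with the replicate block). With the block its SE was 0.10 and its unadjusted limma p was 0.00236, so the wide interval includes spread between replicate numbers.

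S100a11 varied least between arrays. It read 12.45, 12.34, 12.33, 12.14 and 12.31 in mCherry- replicates 1 to 5, and 12.49, 12.49, 12.52, 11.98 and 12.43 in mCherry+ replicates 1 to 5. Replicate 4 was the lowest in both groups, and the groups overlapped. The log2 difference was 0.07 (SE 0.12, 95% interval -0.19 to 0.33; limma adjusted p = 0.981). Its 2 probe sets gave the same difference and lay within 0.07 of each other on every array. The gene table also holds a near-identical copy, S100a11-ps, whose RNA these probes could share, so the identity of this signal is uncertain.

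S100a13 and S100a1 did not differ beyond their spread either. S100a13 ranged from 6.57 to 8.22 in mCherry- and from 6.82 to 7.67 in mCherry+ eosinophils, with a log2 difference of -0.36 (SE 0.29, 95% interval -0.99 to 0.28; limma adjusted p = 0.911). S100a1 ranged from 5.37 to 7.27 in mCherry- and from 5.49 to 6.98 in mCherry+ eosinophils, with a difference of -0.10 (SE 0.38, 95% interval -0.94 to 0.73; limma adjusted p = 0.993). The groups overlapped for both genes, and the S100a1 difference took either sign depending on which array was left out (-0.42 to 0.20). None of these intervals reached the size of the calprotectin differences.

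**Figure D2:**
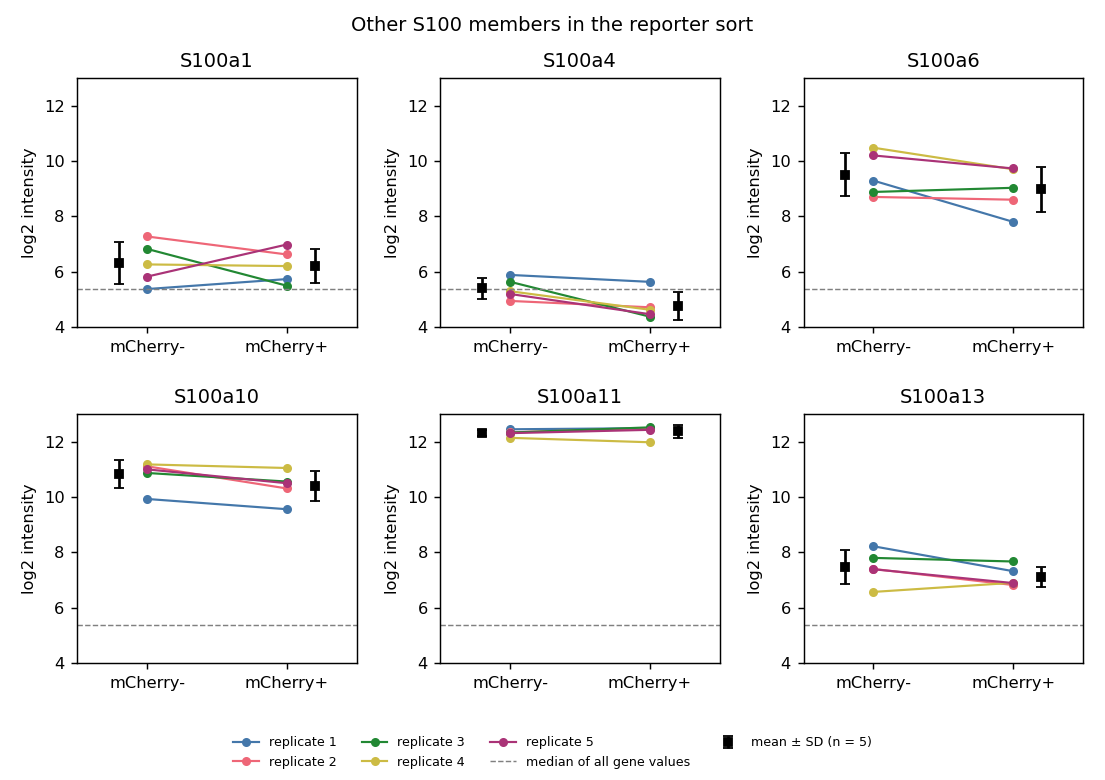
log2 intensity of the 6 members other than S100a8 and S100a9 in mCherry- and mCherry+ eosinophils, on 1 common scale; lines join arrays of 1 replicate number, squares and bars are the mean and SD of 5 arrays, and the dashed line is the median of all gene values (5.36). The groups overlap in every panel, S100a4 lies near the dashed line, and S100a11 stays between 11.98 and 12.52.

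Across the 10 arrays, the other members followed S100a8 to different degrees. Pearson's r between the deviations of S100a8 and of each other member from their group means was 0.77 for S100a6, 0.54 for S100a10 and 0.40 for S100a9, and it was -0.26 for S100a1, -0.44 for S100a4, -0.47 for S100a13 and -0.50 for S100a11. These values describe 10 arrays that share amplification and normalization and carry no p. Among the 10826 genes compared, all brighter than the table median, the deviations most like those of S100a8 were those of Yae1d1 (r = 0.97), Mob3b (0.96), Acp6 (0.96), Abcc10 (0.95), Serhl (0.94) and Snora31 (0.92). Their own differences between the groups lay between -0.30 and 0.15, and S100a9 came at place 2439. The r of 0.40 pools both groups. S100a8 and S100a9 came in the same order on the mCherry- arrays. Their orders differed on the mCherry+ arrays, where part of the signal was close to background. The 6 named genes were picked as the highest of 10826, so their r is not set against that of S100a9.

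No other S100 family gene was called between the groups. Of 10 other family genes, 9 were measured in the reporter table, 3 of them with a mean above the table median, and 0 were called by limma with or without the replicate block. Only S100b had an unadjusted p under 0.05, a level reached by 7.33% of all genes without the block and by 11.8% with it. Their median difference was -0.03. S100b, known from glial cells, was higher in mCherry+ in 5 of 5 pairs (5.19 ± 0.60 against 4.54 ± 0.31, SD, n = 5), a difference of 0.65 with an adjusted p of 0.57, but both means were under the table median. S100a16 was bright enough to compare and read 7.19 in mCherry+ and 7.14 in mCherry- eosinophils. The differences were -0.23 for S100a5, -0.05 for S100a2, -0.03 for S100a3, S100a14 and S100z, and 0.02 for S100a7a.

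S100g, the calcium-carrying calbindin of intestinal epithelial cells, varied widely among arrays of each group. It read 6.76, 10.68, 11.26, 10.18 and 10.85 in mCherry- replicates 1 to 5, and 7.28, 9.30, 9.80, 10.50 and 9.69 in mCherry+ replicates 1 to 5. Replicate 1 was the lowest in both groups. The difference was -0.63 (limma adjusted p = 0.966). The mean of 16 intestinal epithelial markers moved with it: it was 8.20 in mCherry- and 8.37 in mCherry+ replicate 1, and 10.11 to 10.99 on the other 8 arrays. None of the 16 was called between the groups by limma in either fit. The largest differences were -0.35 for Krt18 and -0.31 for Cdh1. Without the block, 0 had an unadjusted limma p under 0.05. With the block 4 did (Krt18, Cldn7, Cdh1 and Lgals4), against 11.8% of all genes. Each of these was lower in mCherry+ in 5 of 5 pairs. S100a10 was also lowest in replicate 1, and the part of epithelial RNA in its values was not tested.

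**Figure D3:**
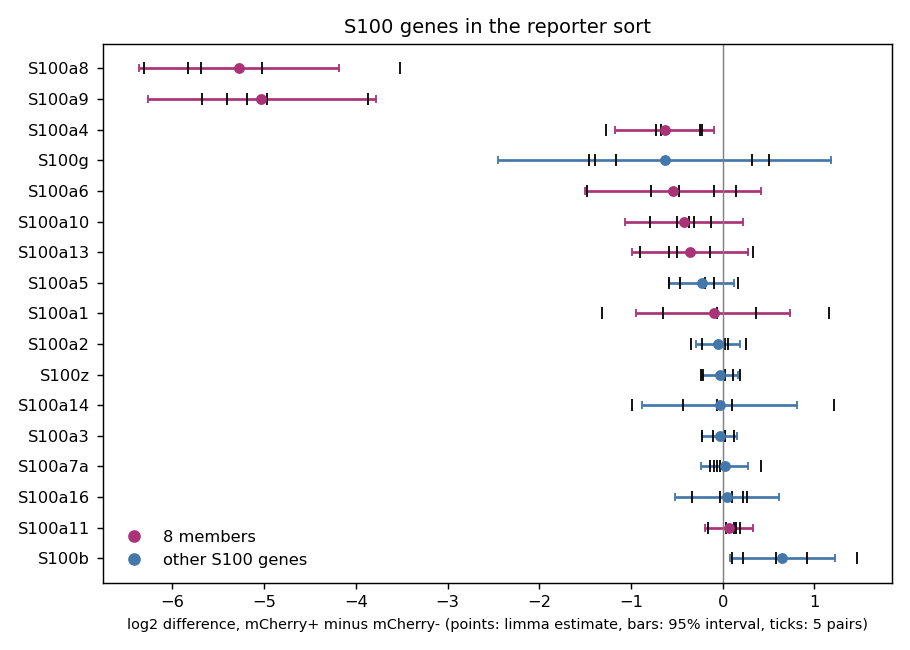
log2 difference between mCherry+ and mCherry- eosinophils for the 8 members and 9 other S100 genes. Points are limma estimates, bars are 95% intervals of the fit without the replicate block, and ticks are the 5 pairs. S100a8 (-5.27) and S100a9 (-5.03) stand apart from all others, which lie between -0.63 and 0.65.

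The neighbours of the S100 genes were read from the same fit. Between the first and the last of the 15 S100 genes on chromosome 3 (90511034 to 93564645), the gene table places 86 other genes, of which 49 were measured. Limma called 0 of the 49 with or without the replicate block, 3 had an unadjusted p under 0.05 (Lce3a, Lor and Pglyrp3; 4 genes with the block), and their median difference was 0.01. These counts are near the shares of all genes, 0.355% called and 7.33% at that unadjusted p, and say nothing particular about the neighbours.

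Neutrophils and monocytes make calprotectin, so their markers were read on the same arrays. Of 18 neutrophil markers, 0 were called by limma in either fit, and the median difference was -0.09. An unadjusted limma p under 0.05 was reached by 2 (Lcn2 and Csf3r, both lower in mCherry+), against 7.33% of all genes. The mean of the list per array was 4.97 to 5.34 in mCherry+ and 5.25 to 6.15 in mCherry- eosinophils. Of 7 genes listed here as neutrophil-defining, 6 were under the table median on average. Ly6g lay between 3.17 and 3.80, Mpo between 4.66 and 5.28, and Elane between 4.68 and 5.23. Camp lay between 4.78 and 5.48, Ngp between 4.71 and 5.37, and Ltf between 4.32 and 4.91. The exception was Retnlg, a resistin-like secreted protein, at 12.09 ± 0.29 in mCherry+ and 12.18 ± 0.25 in mCherry- eosinophils. Of all 18 markers, 5 were above the table median on average. Besides Retnlg they included Mmp9 (9.23 in mCherry+ and 9.52 in mCherry-) and Cxcr2 (7.58 and 7.07). The share of neutrophils in the samples was not tested.

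A few inducible or neutrophil-linked genes were high on mCherry- replicates 4 and 5, the arrays on which S100a8 and S100a9 were highest. Lcn2, the iron-scavenging lipocalin, read 8.61 and 7.45 there and 4.77 to 5.19 on the other 3 mCherry- arrays. Stfa2l1, a cystatin of neutrophils, read 7.74 and 6.01 against 2.40 to 3.05. Csf3r, the receptor for granulocyte colony-stimulating factor, which is named here after its values were seen, read 9.65 and 8.68 against 6.91 to 7.85. These genes did not pass between the groups (limma adjusted p = 0.545 for Lcn2, 0.709 for Stfa2l1 and 0.637 for Csf3r). Without replicates 4 and 5 in either group, which was tried after the values were seen, S100a8 differed by -4.79 (limma adjusted p = 0.0219) and S100a9 by -4.68, with an adjusted p of 0.0625 without the replicate block and 0.0047 with it. The part of these genes, or of the cells that make them, in the S100a8 and S100a9 differences was not tested.

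**Figure D4:**
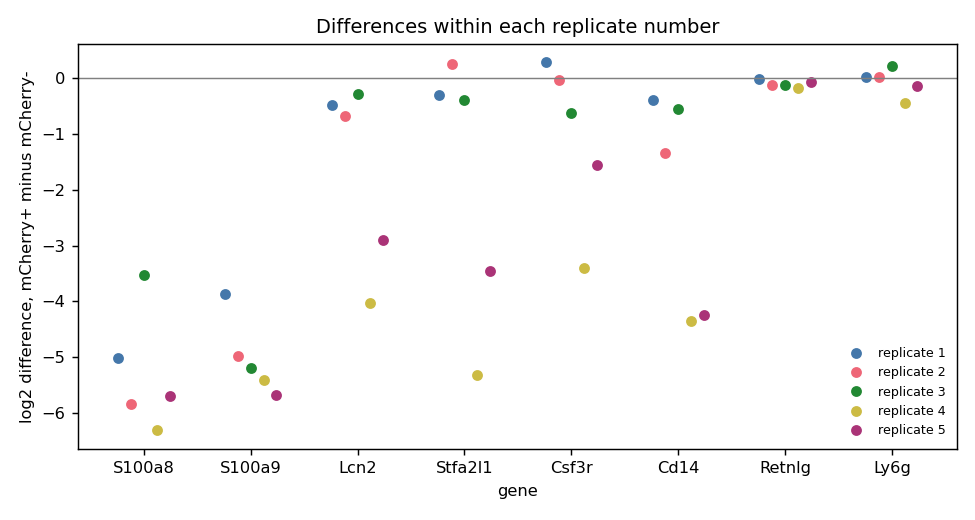
log2 difference between mCherry+ and mCherry- eosinophils within each of the 5 replicate numbers for S100a8, S100a9 and 6 other genes. S100a8 and S100a9 lie at -3.52 or below in all 5 pairs, Lcn2, Stfa2l1, Csf3r and Cd14 are lowest in pairs 4 and 5, and Retnlg and Ly6g stay near 0.

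Of 16 markers of monocytes and macrophages, 0 were called by limma in either fit. An unadjusted limma p under 0.05 was reached by 2 (Csf1r and F13a1, both lower in mCherry+), against 7.33% of all genes. With the block 1 reached it, against 11.8% of all genes. The median difference over the 16 markers was 0.16. Their mean per array was 5.71 to 6.69 in mCherry+ and 5.72 to 6.29 in mCherry- eosinophils. The largest differences were 0.50 each, for Apoe and C1qc. Of 12 eosinophil markers, 0 were called without the block and 0 had an unadjusted p under 0.05. With the block, Prg2, the granule major basic protein, was called lower in mCherry+ (5.90 ± 0.73 against 6.92 ± 0.99, SD, n = 5; adjusted p = 0.0438, and 0.689 without the block). Il5ra differed by 0.46.

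The receptors through which extracellular S100 proteins signal did not pass in either direction. Of 12 genes, 0 were called by limma in either fit, and 4 had an unadjusted p under 0.05 (Cd33, higher in mCherry+, and Cd14, Cd69 and Alcam, lower), against 7.33% of all genes. Tlr4, the main receptor of calprotectin, differed by -0.01, its co-receptor Ly96 by -0.29, Ager by -0.18 and Bsg, a calprotectin-binding membrane protein, by 0.05. Tlr4 and Ly96 had means under the table median in both groups. Cd14, which helps load Tlr4, averaged 8.21 ± 1.66 in mCherry- and 6.03 ± 0.60 in mCherry+ eosinophils (SD, n = 5), a difference of -2.18 with an adjusted p of 0.362. It was high on mCherry- replicates 4 and 5 (10.25 and 9.67) and 6.45 to 7.44 on the other 3. Cd33, a Siglec whose human form binds S100a9, was higher in mCherry+ in 5 of 5 pairs (9.71 ± 0.47 against 8.49 ± 0.39). It just missed the threshold (difference 1.22, limma adjusted p = 0.0769, and 0.0563 with the block).

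The intracellular partners of the members are listed with their own differences. Of 15 annexins and other partners, 0 were called by limma in either fit, and the median difference was -0.13. An unadjusted limma p under 0.05 was reached by 1 without the block (Anxa5) and by 3 with it. The shares of all genes were 7.33% and 11.8%. Anxa2, the partner of S100a10, differed by -0.13, and Anxa1, the partner of S100a11, by -0.64 (limma adjusted p = 0.738), with both Anxa1 means (4.60 and 5.24) under the table median. Cacybp, the partner of S100a6, differed by -0.01, and Myh9, the myosin bound by S100a4, by 0.00. Of the cargo of S100a13, Il1a was bright (11.89 ± 0.26 in mCherry+ and 12.04 ± 0.27 in mCherry-) and differed by -0.15, whereas Fgf1 was under the table median in both groups (4.31 and 4.39). Anxa5 had the largest difference of the list, at -0.71 (adjusted p = 0.431).

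Calprotectin competes for zinc and manganese, and the genes that move these metals were split. Of 12, 0 were called by limma without the replicate block, and 1 was called in each direction with the block. An unadjusted limma p under 0.05 was reached by 2 without the block, against 7.33% of all genes. Slc11a1, the phagosomal metal pump also called Nramp, was lower in mCherry+ (8.13 ± 0.53 against 9.50 ± 0.62, SD, n = 5) with no overlap between the groups. Its difference of -1.37 (SE 0.32) had an adjusted p of 0.146, and of 0.00413 with the block. Slc40a1, the iron exporter ferroportin, was higher in mCherry+ in 5 of 5 pairs by 0.99 (7.75 ± 0.36 against 6.76 ± 0.22), with an adjusted p of 0.0614, and of 0.0153 with the block. With the block, 1.76% of all genes were called (376), 0.748% lower and 1.01% higher, so these 2 of 12 are read against a larger background. The metallothioneins Mt1 and Mt2, named after their values were seen, differed by -0.03 and -0.14.

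Transcription factors linked to S100a8 and S100a9 in myeloid cells were also read. Of 11, 0 were called by limma without the block and 3 had an unadjusted p under 0.05 (Ahr and Nr3c1, higher in mCherry+, and Rela, lower), against 7.33% of all genes. With the block, which called 1.01% of all genes higher, Ahr (11.10 ± 0.44 in mCherry+ against 10.09 ± 0.64, difference 1.00, adjusted p = 0.00234, and 0.347 without it) and Nr3c1, the glucocorticoid receptor (8.89 ± 0.35 against 7.93 ± 0.34, difference 0.97, adjusted p = 0.0233, and 0.101 without it), were called higher in mCherry+. The median difference over the list was 0.17.

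The 3 single arrays repeated the sort with Clec4a4 itself in WT mice and added the Ahr KO. They have no replicate, so no test was made. Genes at least 2-fold apart are counted if the brighter array reached 4.80, and a fold against a value under 4.80 is a bound computed from 4.80. S100a8 read 3.27 on the WT Clec4a4+ array, 6.70 on the WT Clec4a4- array and 5.73 on the Ahr KO Clec4a4- array. Its WT Clec4a4+ value lay under the table median, so it was at least 3.73-fold lower in WT Clec4a4+ than in WT Clec4a4- eosinophils. S100a9 read 5.93, 7.23 and 7.33 in the same order, 2.46-fold lower in WT Clec4a4+ than in WT Clec4a4- eosinophils.

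Both subunits were lower on the Clec4a4+ side of the sort in the reporter and in the WT mice. The measured log2 difference between WT Clec4a4+ and WT Clec4a4- eosinophils was -3.43 for S100a8 (-1.90 from the bound) and -1.30 for S100a9. The array models, probes and mice differ from those of the reporter sort, so the sizes are not ranked between the sorts. The neutrophil-marker mean was 5.22 on both WT arrays and 5.42 on the Ahr KO array. Ly6g, Mpo, Camp, Ngp and Ltf, which enter that mean, were under 4.80 on each of these arrays. Within that list, Cxcr2, a chemokine receptor, was 2.06-fold higher on the WT Clec4a4+ and 2.4-fold higher on the Ahr KO array than on the WT Clec4a4- array (7.70, 7.92 and 6.66), and Csf3r read 7.03, 7.63 and 8.10 on the WT Clec4a4+, WT Clec4a4- and Ahr KO arrays. The epithelial mean was 5.63, 5.88 and 5.84 on the WT Clec4a4+, WT Clec4a4- and Ahr KO arrays. The mean of the 12 eosinophil markers was 7.64, 8.07 and 7.82 in the same order. Of these 12, 2 were lower by 2-fold or more on the WT Clec4a4+ than on the WT Clec4a4- array and 0 higher, against 1.03% and 0.64% of all genes. Prg2 read 8.58, 9.78 and 9.85.

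S100a6 had the widest difference between the WT arrays of the members measured above 4.80 on both. It read 6.04 on the WT Clec4a4+ array, 9.14 on the WT Clec4a4- array and 7.73 on the Ahr KO array. It was 8.58-fold lower in WT Clec4a4+ than in WT Clec4a4- eosinophils, a log2 difference of -3.10. The reporter subsets differed by -0.54 with overlapping groups. These sizes are not ranked between the sorts, and the part of epithelial RNA in the S100a6 values was not tested. S100a8, S100a9 and S100a6 were the 3 of 8 members that were lower by 2-fold or more, with 0 higher, against 1.03% lower and 0.64% higher among all genes (258 and 160 of 25003). The median was -0.54 over the 8 members and 0.00 over all genes, and 7 of 8 members were lower on the WT Clec4a4+ array.

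The member that went the other way was S100a4, which read 6.30 on the WT Clec4a4+ array, 5.68 on the WT Clec4a4- array and 5.61 on the Ahr KO array. The other 4 members were less than 2-fold apart on all 3 arrays. S100a10 read 10.13, 10.82 and 10.39 on the WT Clec4a4+, WT Clec4a4- and Ahr KO arrays. S100a11 read 9.58, 9.83 and 9.52 in the same order. S100a13 read 9.07, 9.32 and 8.94, and S100a1 read 6.98, 7.37 and 6.93. All 4 were highest on the WT Clec4a4- array, and S100a10 was the only one of them with the Ahr KO array between the WT arrays.

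**Figure D5:**
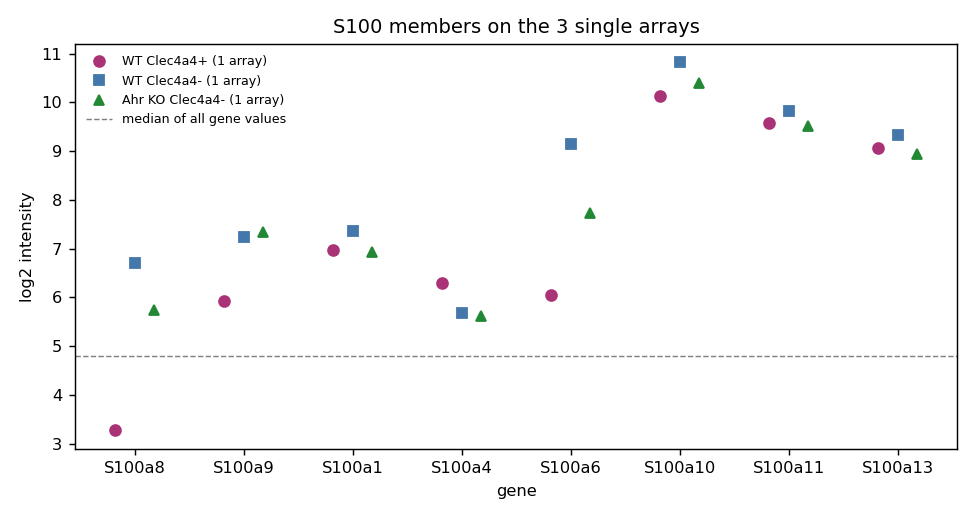
log2 intensity of the 8 members on the 3 single arrays (Clec4a4+ and Clec4a4- of WT mice, Clec4a4- of Ahr KO mice); each point is 1 array, with no replicate, and the dashed line is the median of all gene values (4.80). S100a8, S100a9 and S100a6 are lowest on the WT Clec4a4+ array (3.27, 5.93 and 6.04), and S100a4 is highest there (6.30).

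Between the Clec4a4- eosinophils of Ahr KO and WT mice, S100a6 was more than 2-fold apart and the calprotectin subunits were less than 2-fold apart. S100a6 was 2.64-fold lower on the Ahr KO than on the WT Clec4a4- array (log2 difference -1.40). The differences were -0.97 for S100a8 (1.96-fold, close to the 2-fold line) and 0.10 for S100a9. S100a6 was the 1 of 8 members lower by 2-fold or more, with 0 higher, against 0.772% lower and 0.596% higher among all genes (193 and 149 of 25003). The median over the members was -0.40, against 0.00 over all genes, and 7 of 8 were lower on the Ahr KO array. Of the 15 annexins and other partners, 2 were lower by 2-fold or more on the Ahr KO array: Ahnak, a scaffold bound by the complex of S100a10 and Anxa2, was 2.4-fold lower (6.04 against 7.30) and Anxa1 was 2.05-fold lower (5.07 against 6.11). Ahnak was also the 1 partner gene that was 2-fold or more lower on the WT Clec4a4+ than on the WT Clec4a4- array (5.82 against 7.30, 2.8-fold).

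Against the WT Clec4a4+ array, the Ahr KO Clec4a4- array held more of the same 3 genes. These arrays differ both in genotype and in the Clec4a4 sort, so the parts of the 2 cannot be told apart here. S100a9 was 2.64-fold higher, S100a6 3.24-fold higher, and S100a8 at least 1.91-fold higher (log2 difference of measured values 2.46, which is the value counted here). These 3 of 8 members were higher by 2-fold or more and 0 were lower, against 0.496% of all genes in each direction (124 of 25003). S100a8 was counted through its WT Clec4a4+ value under 4.80, and with the floor at the 75th percentile of the table (6.12) the count was 2, S100a9 and S100a6. The Ahr KO value lay between the WT arrays for 3 of 8 members (S100a8, S100a6 and S100a10). The share of all genes with such an order was not computed, so this count says nothing particular about the members. Each pair of these 3 comparisons shares an array, so their differences are not independent. Of the other S100 family genes, all 10 were measured in this table, S100a7l2 here only (3.03 to 3.08, under the table median), and 0 were 2-fold apart in any of the 3 comparisons.

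Slc11a1, whose single-array values were looked up after its reporter values were seen, read 6.81 on the WT Clec4a4+ array, 9.31 on the WT Clec4a4- array and 8.58 on the Ahr KO array. It was thus lower in WT Clec4a4+ eosinophils, as in the mCherry+ subset, where it was called only with the replicate block. Other genes with a reporter difference, also looked up afterwards, went both ways. Slc40a1, higher in mCherry+, read 8.26 on the WT Clec4a4+ and 7.31 on the WT Clec4a4- array. Cd14, lower in mCherry+ but not called, read 6.36 and 6.12, and Ahr, higher in mCherry+, read 11.11 and 11.08.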

How the data were processed

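RNA was measured on 13 arrays, from 2 ng of total RNA amplified with the WT-Ovation PicoSL kit per the labels' protocols. The authors deposited log2 intensities made with RMA, which corrects background, brings arrays to 1 distribution and summarises each probe set, per the submitters' processing notes. Value tables of the series held the same numbers to within 5e-09. Of 35556 and 28360 probe sets, those with 1 Entrez identifier or accession were named through RefSeq's gene table (GRCm38.p6), and the brightest of each gene was kept. No array was left out or imputed.

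Reporter groups were compared over all 21395 genes, 5 arrays against 5, with limma (version 3.58.1, under R 4.3.3), whose variance prior followed intensity and was robust to outlying genes; tests were two-sided and genes called at a Benjamini-Hochberg adjusted p under 0.05; the fit was tested on simulated data. Replicate numbers paired the samples: deviations from group means correlated at 0.659, 0.165, 0.171, 0.527 and 0.199 in pairs 1 to 5, and 9 of 10 arrays deviated most like their own number. No label says what the number stands for. The blocked value is given where it changes a call. The number of arrays limits the precision.

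The members, gene lists, tests and naming rule were chosen with earlier results of these data known, so no direction seen before counts as independent support. The only measured value that chose a probe set was its mean brightness over all arrays. The text names all members, the other S100 genes, the best-known receptor or binding partners of the members, up to 4 called genes of each list or else the 2 with the largest change, defining cell markers, and the 6 genes most like S100a8, predicted genes left out; in the single arrays, family genes and partners at 2-fold or more. Ahnak, Cxcr2 and Mmp9, and genes named only for an unadjusted p under 0.05, were picked after their values were seen. Alternatives were the replicate block, brightness filter, probe set rule, centring, array weights, moderation, array exclusion, and the fold and floor for single arrays.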

Additional observations from a re-analysis of the deposited data

Results flagged for a closer look

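Within groups of 5 reporter arrays, an array stood apart from the other 4 by a gap larger than Dixon's limit in 5 of 34 groups checked, where chance gives about 1 in 20. S100a4 on mCherry+ replicate 1 was 5.63, against 4.37 to 4.71 on the other 4. S100a10 on mCherry- replicate 1 was 9.93, against 10.87 to 11.18. S100a11 on mCherry+ replicate 4 was 11.98, against 12.43 to 12.52. S100g on mCherry- replicate 1 was 6.76, against 10.18 to 11.26, and S100a2 on the same array was 5.05, against 4.76 to 4.83, all under the table median.

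S100a4 was lower in mCherry+ eosinophils in 5 of 5 reporter pairs (mean log2 difference -0.63), but on the single arrays it was higher by 0.61 in WT Clec4a4+ than in WT Clec4a4- eosinophils. The difference between the sorts was not tested.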

How the results depend on the processing

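S100a8 stayed called and lower in 26 of 26 alternatives (-5.71 to -4.79, highest adjusted p = 0.0284), leave-outs giving -5.71 to -4.88. S100a9 stayed lower (-5.39 to -4.61, the same range over leave-outs), and its call was lost in 3: without replicate 2, without replicate 5 (-5.04 and -4.86, limma adjusted p = 0.0554 and 0.0749) and with replicates 1 to 3 only, an alternative chosen after the data were seen (-4.68, limma adjusted p = 0.0625). Members called numbered 1 to 2 over the leave-outs and 1 with replicates 1 to 3 only. The replicate block called 376 genes in place of 76 and changed no member's call. Genes called were also 122 above the table median, 34 with all probe sets tested (14 higher, 20 lower, against 31 and 45), 146 with array weights, 26 with replicates 1 to 3 only and 168 with these and the block. Leave-outs gave 12 to 135: 12 without replicate 2, 13 without replicate 3 or 5, and 135 without replicate 4. The causes were not tested. S100a1 changed sign in 6 leave-outs (0.14, 0.02, 0.01, 0.07, 0.03 and 0.20; range over leave-outs -0.42 to 0.20) and was not called in any. At 1.5-fold in place of 2-fold, 5 members differed between the WT arrays, 4 lower and 1 (S100a4) higher in WT Clec4a4+. Between the Ahr KO and WT Clec4a4- arrays 2 differed, 2 lower and 0 higher. Between the Ahr KO and WT Clec4a4+ arrays 4 differed, 3 higher and 1 lower. The share of all genes at 1.5-fold was not computed. Values near the table median, such as S100a4 and the mCherry+ values of S100a8, may be background and understate a fold.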
